A study of Mus musculus with 2 samples.

Results

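Apln, Aplnr, Adm, Calcrl, Ramp2 and Ramp3, the genes of the apelin and adrenomedullin ligands and their receptors, were taken by symbol. They are 6 of the 27998 genes in the matrix. Their levels and their joint detection were described from raw UMIs, the molecules counted by unique molecular identifiers, in cells with and without a UMI of Cdh5, the gene of VE-cadherin (CD144). The study compared 1 library of control embryos with 1 library of embryos that lack Mekk3, the kinase encoded by Map3k3, in endothelium. Both came from C57BL/6J mouse embryos, titled E9.5; the stage label of the mutant is embryonic day 9.7 and that of the control 9.5. Controls were labelled Mekk3 fl/fl and Mekk3 fl/+, with no Cre named, and mutants were Mekk3 fl/- with Tie2Cre. Cells of the umbilical and vitelline arteries and the dorsal aorta were sorted as Ter119-, CD41lo/-, CD31+, CD144+ and ESAM+. Tie2Cre acts in endothelial cells and in blood cells that descend from them, and the mutants carry 1 floxed and 1 deleted allele in all other cells. The number of embryos pooled in a library was not given in the sources used here.

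With 1 library a group there is no test and no p-value. Each interval below is an exact 95% interval that covers counting error only, and not the spread between embryos, litters, stages or sorts. Genotype cannot be told apart from library.

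Apelin, the peptide made from Apln, acts on a G protein-coupled receptor encoded by Aplnr, and in growing vessels the ligand is known from sprouting tip cells and the receptor from veins and stalk cells. Adrenomedullin, made from Adm, acts on the receptor encoded by Calcrl, which needs a RAMP protein to reach the cell surface and to recognise the peptide. RAMP2 and RAMP3 give the 2 adrenomedullin receptors, and mouse embryos that lack Adm, Calcrl or Ramp2 die in mid-gestation with edema. Adm is a well-known target of hypoxia-inducible factors, and Apln has also been described as one.

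In GRCm38 coordinates of the GENCODE annotation, Apln (ENSMUSG00000037010) lies at chrX:48025146-48034853 on the minus strand and Aplnr (ENSMUSG00000044338) at chr2:85136225-85139923 on the plus strand. Adm (ENSMUSG00000030790) lies at chr7:110627661-110629820 on the plus strand. Calcrl (ENSMUSG00000059588) lies at chr2:84330626-84425411 on the minus strand, on the same chromosome as Aplnr. Ramp2 (ENSMUSG00000001240) lies at chr11:101246028-101259546 and Ramp3 (ENSMUSG00000041046) at chr11:6658521-6677475, both on the plus strand. The RefSeq promoter table (GRCm38.p6) held an entry for 4 of the 6 genes, Apln, Adm, Calcrl and Ramp3. The 250 bases before the start of the 2 ligand genes are shown, since Adm differed strongly between the libraries (a mutant to control ratio of 14.9) and Apln did not (0.968). Adm is at chr7:110627407-110627656 (plus strand) and Apln at chrX:48034854-48035103 (minus strand). Neither stretch holds a base of an annotated GENCODE exon. Both are written 5′ to 3′ on the strand of the gene, and capitals mark ACGTG or GCGTG, the core letters of the hypoxia response element, on either strand.
Adm: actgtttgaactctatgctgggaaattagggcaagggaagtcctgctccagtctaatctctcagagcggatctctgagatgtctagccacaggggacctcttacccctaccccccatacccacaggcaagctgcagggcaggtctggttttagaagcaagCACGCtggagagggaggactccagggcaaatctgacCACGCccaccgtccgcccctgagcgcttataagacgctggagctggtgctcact
Apln: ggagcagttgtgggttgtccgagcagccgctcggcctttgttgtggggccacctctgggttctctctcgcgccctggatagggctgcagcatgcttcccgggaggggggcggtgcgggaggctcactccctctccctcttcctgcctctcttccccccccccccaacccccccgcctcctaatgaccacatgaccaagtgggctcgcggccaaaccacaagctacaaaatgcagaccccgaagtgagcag
The Adm stretch holds 2 matches, both GCGTG on the opposite strand, at 90 to 86 and 54 to 50 bases before the start. The Apln stretch holds 0. Of 27025 promoters of the same length, 38.6% hold at least 1 match on either strand and 16.8% hold 2 or more. CACCC, letters bound by KLF factors, occurs on either strand in 51.3% of promoters and in neither of the 2 shown. Calcrl held 1 CACCC and 0 hypoxia matches, and Ramp3 held 2 of each. Unlike the 2 shown, these stretches overlap annotated GENCODE exons, by 145 bases for Calcrl and 12 for Ramp3. The Calcrl match, at 78 to 74 bases before the RefSeq start, lies within the annotated GENCODE gene. A match is a match of letters and no more.

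The control library held 6675 cells and the mutant 3242, with medians of 7566 and 5647 UMIs a cell and 5 cell barcodes in common. Cells with a Cdh5 UMI were 86.0% (85.1 to 86.8) of the control, 5737 cells, and 72.6% (71.0 to 74.1) of the mutant, 2352 cells. The remaining 938 and 890 cells were shallower, at medians of 3941 and 3152 UMIs against 8353 and 6727. They are not a population without endothelium: 74.0% of them in the control and 76.7% in the mutant had UMIs of at least 3 of 9 other endothelial markers. All 10 endothelial markers were detected in both libraries, and 0 of them passed a 2-fold ratio between the Cdh5-positive cells. Summed over the list, these markers took 3714 of every 1000000 UMIs (CPM) of control cells and 3279 of mutant cells. Map3k3 took 9.37 CPM (524 UMIs) of control and 11 CPM (195 UMIs) of mutant cells. A 3′ tag outside the deleted part does not check the deletion. Hemoglobin RNA in Cdh5-positive cells was 745 CPM in the control and 7.73 in the mutant, and the smooth muscle list summed to 52.9 and 196 CPM. Ddx3y, a Y-linked gene, gave 1140 UMIs in the control library and 0 in the mutant, so the libraries differ in their mix of sexes. The part of these differences in the results below was not tested, except where a value without them is given.

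Adm, one of the 2 ligands, was the member that differed most. It had 633 UMIs in Cdh5-positive control cells, 11.3 CPM (10.5 to 12.2), and 2986 UMIs in mutant cells, 168 CPM (162 to 175). The mutant was far above the control and the intervals did not overlap. The ratio of mutant to control was 14.9 (13.7 to 16.2), a log2 ratio of 3.90. Among 8574 genes with a mean of at least 5 CPM, 420 (4.9%) were past 2-fold higher in the mutant and 539 (6.29%) past 2-fold lower; the median log2 ratio was -0.13. All 6 members passed this filter, and the control level of Adm, 11.3 CPM, was by itself above 5 CPM. Adm lay above 99.85% of these genes. In cells without a Cdh5 UMI, the control held Adm at 8.87 CPM (43 UMIs) and the mutant at 151 CPM (570 UMIs), which is 16.98 times as much (12.4 to 23.7). The background there was 6.76% of 8611 genes past 2-fold higher and 9.2% past 2-fold lower.

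The higher Adm level came with more cells that held a UMI and with more UMIs in each such cell. To compare shares of cells at 1 depth, each cell was thinned at random to 2500 UMIs and shallower cells were left out, which kept 4962 control and 1911 mutant Cdh5-positive cells. An Adm UMI was then found in 3.08% of control and 30.9% of mutant cells. Without thinning the shares were 8.1% and 55.9%, with 1.36 and 2.27 UMIs a positive cell. Free RNA in droplets can place a UMI in a cell that does not make it. In the blood-like cluster of the control, described below, 0 of 142 thinned cells had an Adm UMI, with an exact interval up to 2.56%. The median depth of that cluster was 15911 UMIs. Only 31 of its 146 control cells lacked a Cdh5 UMI, so most of them also count among the Cdh5-positive cells. Control cells with at least 2 blood markers and no Cdh5 UMI gave a wider interval. Of these, 1 of 32 held an Adm UMI, and 0 of 31 after thinning, with an exact interval up to 11.2%. The mutant had no blood-like cluster of 50 cells, and its background rests on 6 cells with at least 2 blood markers and no Cdh5 UMI, at a median depth of 6694.5 UMIs. Of these, 3 of 6 held an Adm UMI, and 1 of 5 after thinning, with an exact interval of 0.505% to 71.6%. Their summed level, 141 CPM (51.7 to 307) on 6 UMIs, overlapped that of Cdh5-positive mutant cells. The part of free RNA in the mutant shares was not tested.

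Apln, the other ligand, stood at nearly the same level in both libraries. It had 998 UMIs in the control, 17.8 CPM (16.8 to 19.0), and 306 in the mutant, 17.3 CPM (15.4 to 19.3). The intervals overlapped and the ratio was 0.968 (0.848 to 1.10). Its log2 ratio was below 0 in 7 of 13 other ways of scaling or choosing cells and above 0 in 6, from -0.27 to 0.18. After thinning, 4.72% of control and 5.34% of mutant cells held an Apln UMI. Without a Cdh5 UMI, control cells held 14.7 CPM and mutant cells 16.4 CPM, a ratio of 1.12 (0.783 to 1.60). Apln is X-linked and the libraries differ in sex, so the control was also split by sex-linked UMIs. Control cells with Xist and no Y-linked UMI stood at 16.9 CPM (15.4 to 18.6), and control cells with a Y-linked UMI and no Xist at 16.6 CPM (14.6 to 18.8). Both intervals overlapped that of the mutant.

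Aplnr, the apelin receptor, was lower in the mutant. It had 6457 UMIs in control cells, 115 CPM (113 to 118), and 847 in mutant cells, 47.8 CPM (44.6 to 51.1). The intervals lay far apart, and the ratio was 0.414 (0.385 to 0.445). Only 2.71% of the genes tested had a lower ratio. The share of thinned cells with a UMI was 26.0% in the control and 11.5% in the mutant, and a positive cell held 2.04 and 1.33 UMIs before thinning. Cells without a Cdh5 UMI held 85.9 and 40.97 CPM, and the ratio there was 0.477 (0.394 to 0.575). Of the 6 genes, Adm and Aplnr were past 2-fold, in opposite directions, 1 higher and 1 lower against backgrounds of 4.9% and 6.29%.

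Calcrl, the shared receptor of the adrenomedullin system, was at 98.3 CPM (5497 UMIs) in control cells and at 96.96 CPM (1719 UMIs) in mutant cells. The intervals, 95.7 to 101 and 92.4 to 102, overlapped, and the ratio was 0.987 (0.934 to 1.04). Its direction was not fixed: the log2 ratio lay below 0 in 9 of 13 alternatives and above 0 in 4, the TMM and median-of-ratios scalings among the latter. It was -0.42 when only cells of endothelial-like clusters were used and -0.27 without cluster 15, an unnamed mutant cluster rich in Calcrl. Cells without a Cdh5 UMI gave 63.4 and 70.3 CPM, a ratio of 1.11 (0.938 to 1.31).

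The RAMP partners differed in opposite directions, both within 2-fold. Ramp2 had 58666 UMIs in the control, 1049 CPM (1040 to 1057), and 12506 in the mutant, 705 CPM (693 to 718). The mutant was lower, with no overlap of intervals, and the ratio was 0.673 (0.660 to 0.686). Ramp2 was detected in 89.0% of thinned control cells and 77.7% of thinned mutant cells. Ramp3 had 1228 UMIs in the control, 22.0 CPM (20.7 to 23.2), and 456 in the mutant, 25.7 CPM (23.4 to 28.2). The mutant was slightly higher, with a ratio of 1.17 (1.05 to 1.31). Of all genes tested, 20.3% had a lower ratio than Ramp2 and 74.0% a lower ratio than Ramp3. The ratios in the other cells, without a Cdh5 UMI, were 0.803 (0.760 to 0.848) for Ramp2 and 1.26 (0.951 to 1.66) for Ramp3.

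As UMIs, which count 1 tag a transcript whatever its length, Ramp3 made up 2.05% (1.94 to 2.17) of the Ramp2 and Ramp3 UMIs of control cells and 3.52% (3.21 to 3.85) of those of mutant cells. Among cells without a Cdh5 UMI the Ramp3 share was 3.13% (2.57 to 3.77) in the control and 4.82% (3.96 to 5.80) in the mutant. Ramp2 UMIs per Calcrl UMI were 10.7 in the control and 7.28 in the mutant. These are ratios of tags, and the efficiency with which each transcript is captured is not known.

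**Figure D1:**
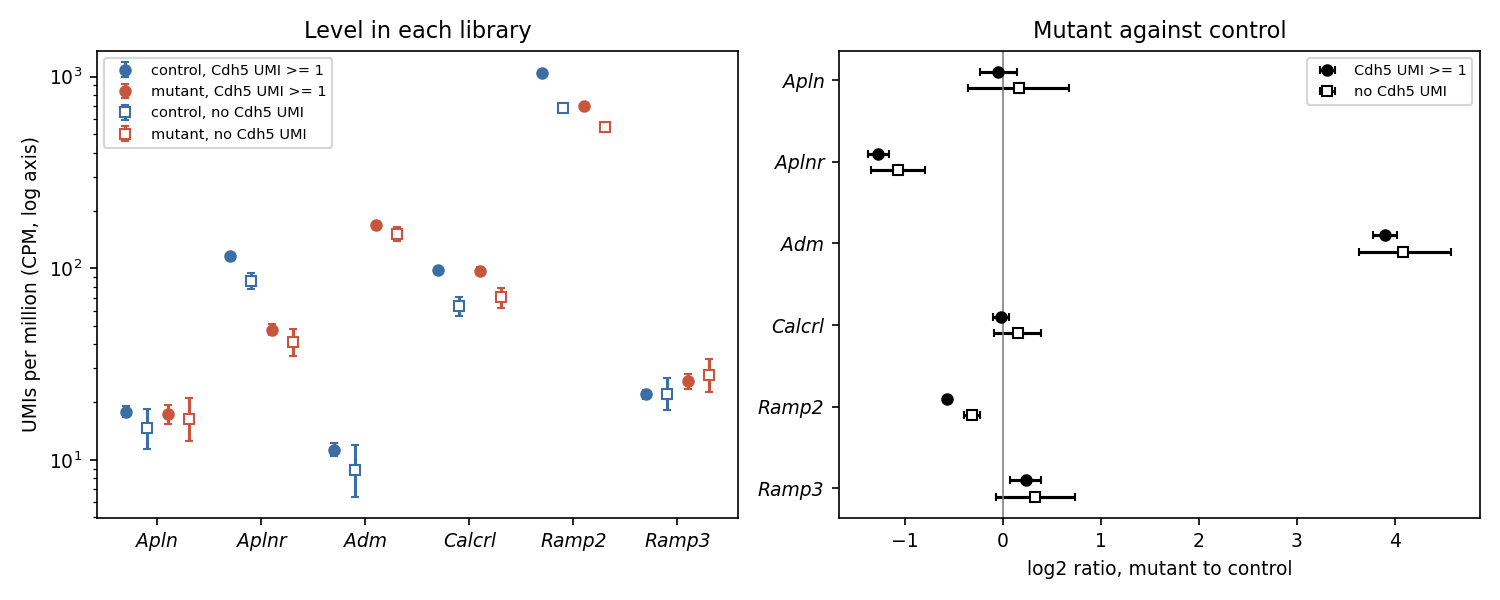
Left, level of each gene in CPM on a log axis, by library (control blue, mutant red) and by cells with (filled circles) or without (open squares) a Cdh5 UMI; right, log2 ratio of mutant to control for the same 2 kinds of cell. Bars are exact 95% intervals for counting error; Adm lies near 3.90 and 4.07, Aplnr near -1.27 and -1.06, and the intervals of Apln and Calcrl include 0.

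The 6 genes differed more among cell clusters than their totals show. Clustering of both libraries in 1 run, with the 6 genes left out, gave 17 clusters. Most clusters belonged to 1 library, so a cluster may be that library and not a cell type. Clusters 1, 2, 4, 5, 8, 9, 10 and 16 were endothelial-like and made up almost wholly of control cells, and clusters 3, 11, 12 and 13 were endothelial-like and almost wholly of mutant cells. Clusters 6 and 7, of shallow cells from both libraries, and cluster 15, with 240 mutant cells led by Tagln and Acta2, were unnamed. Each of these unnamed clusters reached the level used for naming in all 10 endothelial markers. The summed endothelial markers were 1.78, 1.26 and 1.22 times the median cluster in clusters 6, 7 and 15. Cluster 14 was mesenchyme-like, with Tubb3 also among its leading genes, and cluster 17 was blood-like.

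Adm was low in every control cluster and higher in every mutant cluster with at least 50 cells. In the control its highest well-sampled level was 45.7 CPM (39.5 to 52.5) in cluster 9, which was led by Gja4 with Hey1 and Cxcr4 and so carries arterial genes. Cluster 2 followed at 16.4 (14.2 to 18.9) and cluster 4 at 13.9 (10.6 to 17.8), which overlap. The lymphatic-gene cluster 16, led by Prox1 and Lyve1, stood at 2.15 CPM (0.865 to 4.43). In the mutant the highest level was 444 CPM (408 to 481) in cluster 15, then 270 CPM (250 to 292) in cluster 13, led by Sox9 and Esm1, and 263 CPM (235 to 293) in cluster 6. The intervals of clusters 13 and 6 overlap. Clusters 3, 12 and 11 stood at 126, 123 and 108 CPM, with overlapping intervals. In the 2 shallow clusters that both libraries share, Adm was at 27.4 and 263 CPM in cluster 6, a ratio of 9.60 (3.26 to 46.8) on 3 control UMIs, and at 8.78 and 136 CPM in cluster 7, a ratio of 15.4 (6.74 to 41.3).

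Mesenchyme-like cells also held Adm in the mutant. Cluster 14 had 0 Adm UMIs in 175 control cells, where 3 UMIs would be 1.99 CPM, and 27 UMIs in 68 mutant cells, 58.2 CPM (38.3 to 84.7). With that floor in place of 0, Adm was at least 29.2-fold higher by its measured level. With the counting error of the 27 UMIs included, the lower limit was 22.2. After thinning, 5 of 52 mutant cells held an Adm UMI and 0 of 149 control cells did. Adm UMIs per Ramp2 UMI were 0.90 in mutant cells of cluster 14, 0.789 in those of cluster 15 and 0.239 in all Cdh5-positive mutant cells. The part of free RNA in this Adm level was not tested. In the same 68 cells Aplnr had 0 UMIs and Calcrl 2.

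Apln varied widely among the endothelial-like clusters. It reached 36.5 CPM (29.3 to 44.8) in mutant cluster 13, 33.3 (28.0 to 39.1) in control cluster 4, led by Mmrn1, and 28.0 (23.2 to 33.4) in control cluster 9. These 3 overlap one another in part. It was lowest in control cluster 10, at 2.74 CPM (1.004 to 5.96), and control cluster 16, at 4.92 (2.81 to 7.99). Its ratio in the shared shallow clusters was 0.701 (0.318 to 1.83) in cluster 6 and 2.38 (1.14 to 4.90) in cluster 7, on 7 and 20 control UMIs.

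Aplnr varied strongly among the control clusters. Among the endothelial-like ones it stood at 346 CPM (329 to 364) in cluster 4 and at 123 (117 to 130) in cluster 2, with clusters 5, 8 and 1 between 102 and 108. It was lower, 41.95 (36.0 to 48.5), in the Gja4-led cluster 9 and lower again, 19.2 (13.8 to 25.9), in cluster 10, led by Gja5. In the mutant, endothelial-like clusters lay between 26.4 and 46.8 CPM and cluster 15 at 4.61 (1.69 to 10.0). The shared shallow clusters 6 and 7 stood above that range in the mutant, at 158 (137 to 182) and 171 CPM (124 to 231). In the control they were at 447 (331 to 591), on 49 UMIs, and 305 CPM (268 to 346). Their mutant to control ratios were 0.354 (0.258 to 0.495) and 0.562 (0.397 to 0.780), both below 1.

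Calcrl and Ramp2 peaked in the same control cluster. In cluster 10, led by Gja5, Tmem100 and Vwf, Calcrl stood at 632 CPM (599 to 666) and Ramp2 at 2263 CPM (2200 to 2327), above all other clusters shown. Calcrl was found in 73.0% (67.2 to 78.3) of its 263 thinned cells. Next for Calcrl came mutant cluster 15 at 305 CPM (276 to 337), and next for Ramp2 control cluster 9 at 1219 CPM (1186 to 1253). Endothelial-like mutant clusters held Ramp2 at 481 to 882 CPM, and endothelial-like control clusters at 992 to 2263, so the ranges did not overlap. For Calcrl the same ranges, 42.9 to 131 in the mutant and 42.7 to 632 in the control, did overlap. Blood-like control cells, 146 in all, stood at 132 CPM for Calcrl (118 to 147), within the range of endothelial-like clusters, at 332 CPM for Ramp2 (310 to 356), below all of them, and at 5.27 CPM for Aplnr (2.81 to 9.01). After thinning 32.4% (24.8 to 40.8) of them held a Calcrl UMI and 2.11% (0.438 to 6.05) an Aplnr UMI. Cdh5-positive control cells as a whole held 6457 Aplnr and 5497 Calcrl UMIs. The part of free RNA in the levels of the blood-like cells was not tested.

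Ramp3 was highest in control cluster 9, at 54.1 CPM (47.3 to 61.5), and mutant cluster 13, at 53.5 (44.8 to 63.5), which do not differ beyond their intervals. Mutant cluster 7 followed at 47.8 (24.7 to 83.6), on 12 UMIs, and control cluster 2 at 43.8 (40.1 to 47.7), whose intervals overlap. It was low in clusters 10 and 16, at 5.47 (2.83 to 9.56) and 2.15 (0.865 to 4.43), so the cluster with the most Calcrl and Ramp2 was among those with the least Ramp3.

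**Figure D2:**
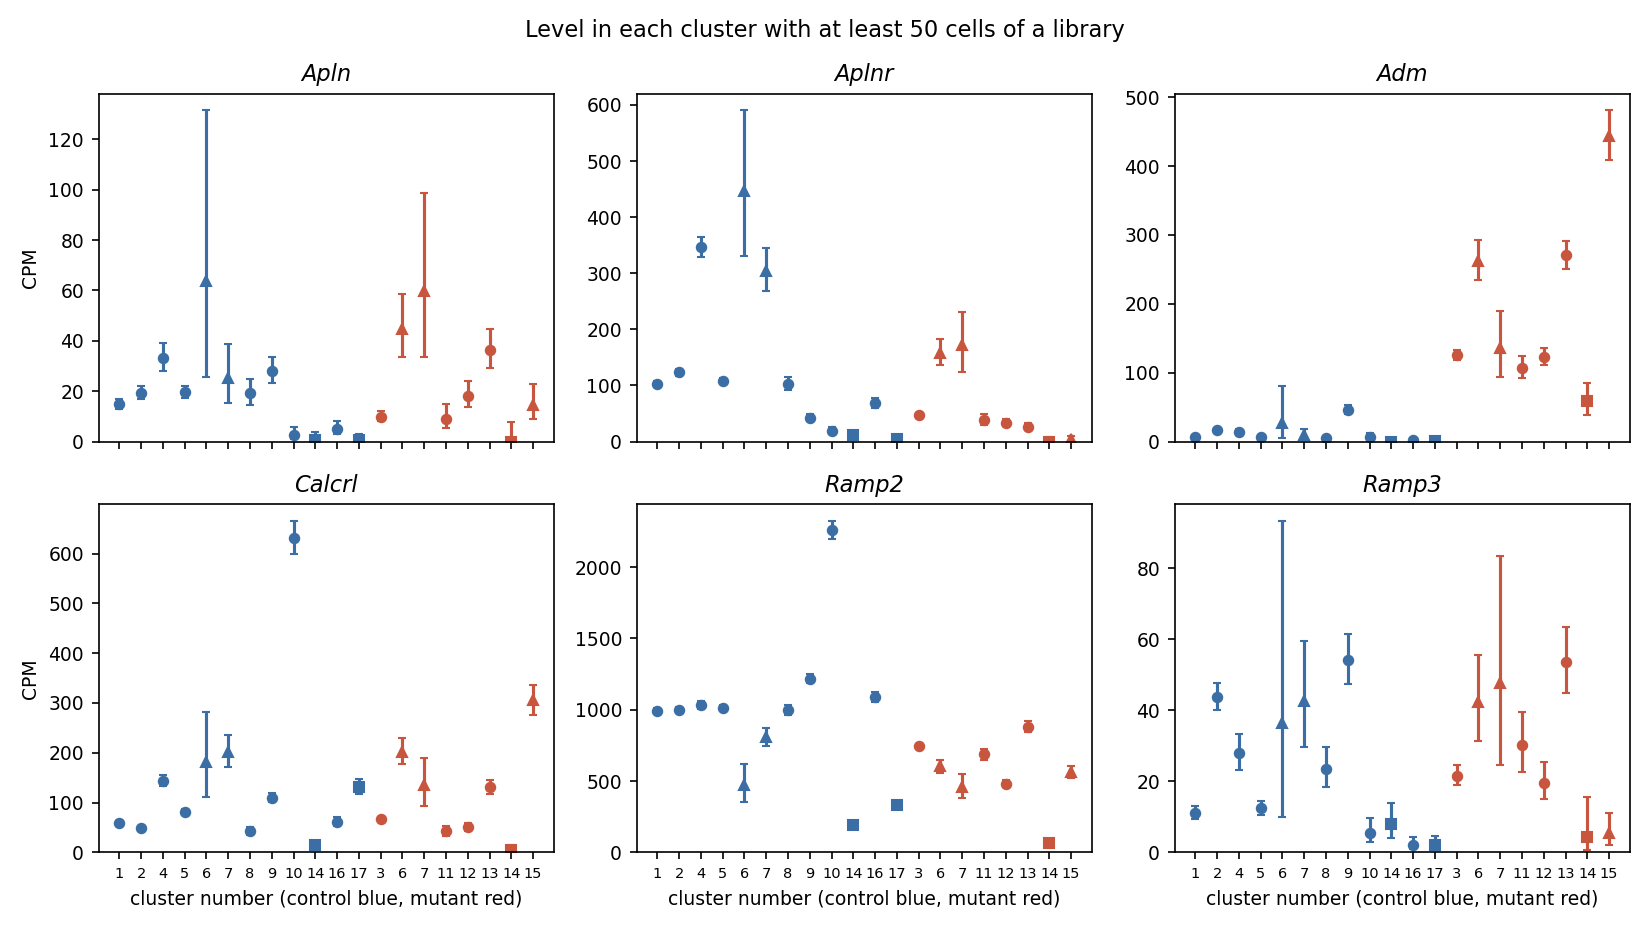
Level in CPM of each gene in each cluster with at least 50 cells of a library, control blue and mutant red, with circles for endothelial-like clusters, triangles for unnamed ones and squares for mesenchyme-like (14) and blood-like (17) ones; bars are exact 95% intervals. Adm is higher in every red point than in the highest blue point, Calcrl and Ramp2 peak in control cluster 10, and Aplnr is highest among endothelial-like clusters in control cluster 4.

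Cdh5-positive cells were also sorted by the UMIs of other genes, each cell thinned to 2500 UMIs. Arterial cells had at least 2 UMIs over 10 arterial genes and 0 over 6 venous genes, and venous cells the reverse. These classes leave out cells in between: 1998 of 4962 control and 872 of 1911 mutant cells held 1 to 2 arterial UMIs, at the edge of the gate. Adm in the control was 18.6 CPM in 883 arterial cells and 8.24 CPM in 534 venous cells, a ratio of arterial to venous of 2.25 (1.14 to 4.86). In the mutant it was 284 CPM in 438 arterial and 94.1 CPM in 119 venous cells, a ratio of 3.02 (2.05 to 4.62). The mutant was above the control in both classes, by 15.3 times (11.02 to 21.7) and 11.4 times (5.51 to 25.4).

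Aplnr ran the other way in the control. Venous control cells stood at 178 CPM and arterial ones at 71.6 CPM, an arterial to venous ratio of 0.403 (0.328 to 0.495). In the mutant the venous cells held 40.3 CPM (12 UMIs) and the arterial cells 31.1 CPM (34 UMIs), a ratio of 0.770 (0.389 to 1.63), which includes 1. The mutant to control ratio was 0.227 (0.116 to 0.404) in venous and 0.434 (0.290 to 0.632) in arterial cells. Those intervals overlap, and the difference between them was not tested.

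Calcrl and Ramp3 were higher in arterial than in venous control cells. Calcrl was 224 against 94.4 CPM, a ratio of 2.38 (1.95 to 2.91), and Ramp3 33.5 against 7.49 CPM, a ratio of 4.48 (2.30 to 9.72). Ramp2 differed less, 1422 against 1158 CPM, a ratio of 1.23 (1.16 to 1.31). Within arterial cells the mutant was below the control for Calcrl, 167 against 224 CPM (ratio 0.745, 0.626 to 0.885), and for Ramp2, 774 against 1422 CPM (ratio 0.544, 0.504 to 0.587). The lower Ramp2 was not particular to arterial cells. Its ratio was 0.604 (0.520 to 0.698) in venous cells. It was 0.671 in cells with at least 2 UMIs of each list and 0.697 in cells with fewer than 2 of each. In cells grouped by the tip-cell genes below, it was 0.614 (0.583 to 0.647) with 0 such UMIs. It was 0.712 (0.666 to 0.762) with 1 to 2 and 1.14 (0.931 to 1.40) with 3 or more, an interval that includes 1. Cluster 10, where Calcrl and Ramp2 peaked, had 435 control and 4 mutant cells. Within venous cells Calcrl stood at 94.4 and 94.1 CPM. Apln was 19.0 CPM in arterial and 18.7 in venous control cells, and 32.0 in arterial mutant cells, a ratio of mutant to control of 1.68 (1.04 to 2.70). Venous mutant cells held 13.5 CPM on 4 UMIs, a ratio of 0.718 (0.182 to 2.08), which overlaps the arterial one. The arterial to venous ratio of Apln in the mutant was 2.38 (0.850 to 9.21), which includes 1.

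Cells with UMIs of tip-cell genes (Esm1, Kcne3, Angpt2 and Pdgfb) held more of both ligands. Cells with 3 or more such UMIs were few in the control, 83 of 4962, and more frequent in the mutant, 172 of 1911. The list itself summed to 108 CPM in Cdh5-positive control cells and 316 CPM in mutant cells. The mutant to control ratios were 5.49 for Esm1, 3.31 for Kcne3, 2.57 for Angpt2 and 1.46 for Pdgfb. An equal number of tip UMIs therefore need not mark like cells in the 2 libraries, for either ligand, for Aplnr or for Ramp2. Apln in control cells went from 17.6 CPM with 0 tip UMIs to 26.6 with 1 to 2 and 57.8 with 3 or more, a ratio of highest to lowest of 3.29 (1.67 to 5.89). In the mutant it went from 18.0 to 23.0 and 46.5 CPM, a ratio of 2.59 (1.44 to 4.495). At the same number of tip UMIs the libraries did not differ beyond the intervals: 1.02 (0.714 to 1.43), 0.864 (0.576 to 1.29) and 0.804 (0.374 to 1.80).

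Adm in control cells went from 10.8 CPM with 0 tip UMIs to 22.0 and 81.9 CPM, a ratio of 7.60 (4.27 to 12.8). In the mutant it went from 153 to 189 and 235 CPM, a ratio of 1.54 (1.22 to 1.92). The mutant to control ratio of Adm was thus 14.2 (11.4 to 17.8) in cells without tip UMIs and 2.87 (1.71 to 5.11) in cells with 3 or more, on 17 control UMIs. For Aplnr the mutant to control ratio was 0.305 (0.247 to 0.372) without tip UMIs and 0.896 (0.451 to 1.86) with 3 or more, on 14 control UMIs. Unlike Adm, Aplnr in the control was lower with 3 or more tip UMIs than with 0, at 67.5 against 143 CPM. That is a ratio of 0.473 (0.258 to 0.796). In the mutant Aplnr stood at 60.5 against 43.5 CPM, a ratio of 1.39 (0.868 to 2.155), which includes 1.

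The hypoxia list, 22 genes without Adm and Apln, gave one more split. In Cdh5-positive cells 21 of its 21 genes with a mean of at least 5 CPM were past 2-fold higher in the mutant. The share of all 8574 genes tested was 4.9%. Slc2a3 (3.70 CPM), Ndrg1 (2.72), Ndufa4l2 (0.751) and P4ha2 (3.41) were below 5 CPM in the control. These genes passed the filter only through the mutant, where they are high. The median log2 ratio of the 21 genes was 2.45. The list was chosen with earlier results of these data known, so this count is a description only. Cells were put in 3 equal bins by this list within each library, and the bins did not span the same range: the control bins had medians of 2, 4 and 7 list UMIs a cell and the mutant bins 9, 14 and 20. Cells tied at a boundary were placed by their order in the file. Adm was higher in each next bin in both libraries, from 8.95 to 12.1 and 21.3 CPM in the control, a ratio of 2.38 (1.60 to 3.59), and from 144 to 171 and 211 CPM in mutant cells, a ratio of 1.47 (1.24 to 1.74). The lowest mutant bin, with 2 to 12 list UMIs a cell, stood at 144 CPM. The highest control bin, with 6 to 22, stood at 21.3 CPM. Apln went from 17.4 to 23.5 CPM in the control, a ratio of 1.35 (0.983 to 1.85), and was 17.6, 30.1 and 20.1 CPM in the mutant bins. Aplnr hardly varied, with ratios of highest to lowest bin of 1.04 (0.922 to 1.17) and 1.07 (0.771 to 1.47).

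Calcrl and Ramp3 ran in opposite directions across these bins in the libraries. Calcrl went from 142 CPM in the lowest to 85.1 in the highest control bin, a ratio of 0.5997 (0.524 to 0.686), and from 91.1 to 124 CPM in the mutant, 1.36 (1.09 to 1.70). Ramp3 went from 16.4 to 28.3 CPM in the control, 1.72 (1.27 to 2.36), and from 39.6 to 21.4 CPM in the mutant, 0.540 (0.345 to 0.832). The intervals of the libraries do not overlap for either gene; the difference itself was not tested.

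**Figure D3:**
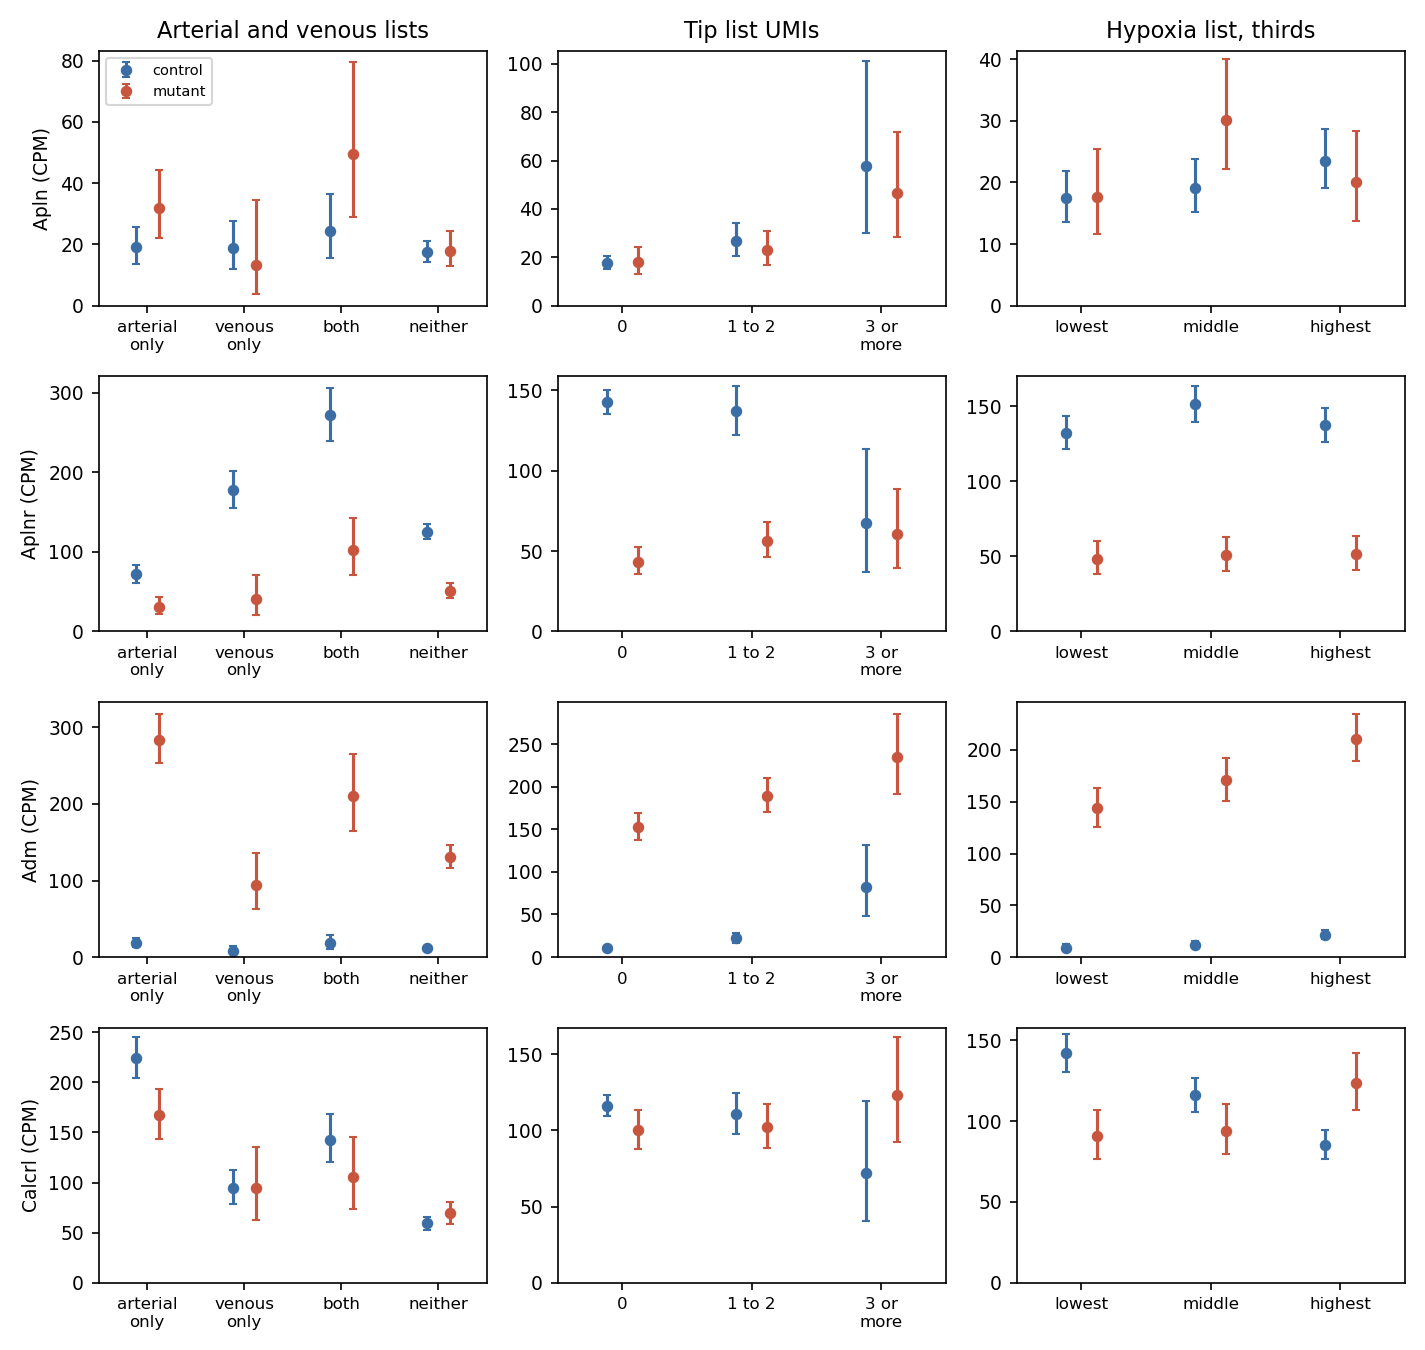
Level in CPM of Apln, Aplnr, Adm and Calcrl (rows) in thinned Cdh5-positive cells, by arterial and venous lists, by number of tip-list UMIs and by 3 equal bins of the hypoxia list within a library (columns); control blue, mutant red, bars exact 95% intervals. Adm in control cells reaches 81.9 CPM only with 3 or more tip UMIs, the lowest mutant Adm level shown is 94.1 CPM in venous cells, and Aplnr in control cells is higher in venous (178 CPM) than in arterial cells (71.6 CPM).

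Ligand and receptor were seldom found in the same cell, and the share was set beside the product of the 2 genes' own shares, the value that independent detection would give. Apln and Aplnr were both found in 74 of 4962 control cells, 1.49% (1.17 to 1.87), where the product gave 60.9 cells. In the mutant they were both found in 14 of 1911 cells, 0.733% (0.401 to 1.23), where the product gave 11.7. At this depth neither library departed from the product beyond its interval. At 5000 UMIs observed over product was 1.14 in the control and 0.801 in the mutant, also within the intervals. Unthinned, 552 of 5737 control cells held both, 9.62% (8.87 to 10.4), above the product of 7.52% and above the 8.55% from products within clusters. The unthinned mutant share was 2.76% (2.14 to 3.51) beside a product of 2.93%. Unthinned cells differ in depth, and the part of depth in this departure was not tested.

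Adm and Calcrl were both found in 14 control cells, 0.282% (0.154 to 0.473), and in 141 mutant cells, 7.38% (6.25 to 8.64). The product gave 31.5 cells in the control, above the observed count, and 116 in the mutant, below it. In control cells with an Adm UMI, 9.15% (5.09 to 14.9) held Calcrl, against 20.98% (19.8 to 22.2) of those without. In mutant cells the same shares were 23.9% (20.5 to 27.6) and 17.9% (15.8 to 20.0). The control departure shrank with depth: observed over product was 0.444 at 2500 UMIs, 0.806 at 5000 and 0.887 unthinned. When the product was taken within each cluster and summed, the mutant ratio was 1.02 and the control ratio 0.444. With Ramp2 added, 13 control cells, 0.262%, and 109 mutant cells, 5.70%, held UMIs of all 3.

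Apln and Adm, the 2 ligands, were found together in 22 control cells, 0.443% (0.278 to 0.671), where the product gave 7.22. That is 3.05 times the product, and it was 2.59 times at 5000 UMIs and 2.28 times unthinned. Within clusters the ratio was 2.36. In the mutant 44 cells, 2.30% (1.68 to 3.08), held both, where the product gave 31.5, a ratio of 1.40. Adm and Aplnr met in 45 control and 59 mutant cells, with products of 39.8 and 67.9. Calcrl met Ramp2 in 956 control cells, 19.3% (18.2 to 20.4), and 293 mutant cells, 15.3% (13.7 to 17.03). Calcrl met Ramp3 in 36 and 23 cells, with products of 49.3 and 24.9.

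In cells without a Cdh5 UMI, 629 control and 524 mutant cells reached 2500 UMIs. Apln and Aplnr met in 8 control cells and 1 mutant cell there, and Adm and Calcrl in 2 and 27, or 0.318% (0.0385 to 1.14) and 5.15% (3.42 to 7.41). The order of the libraries was the same as in Cdh5-positive cells for both pairs.

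**Figure D4:**
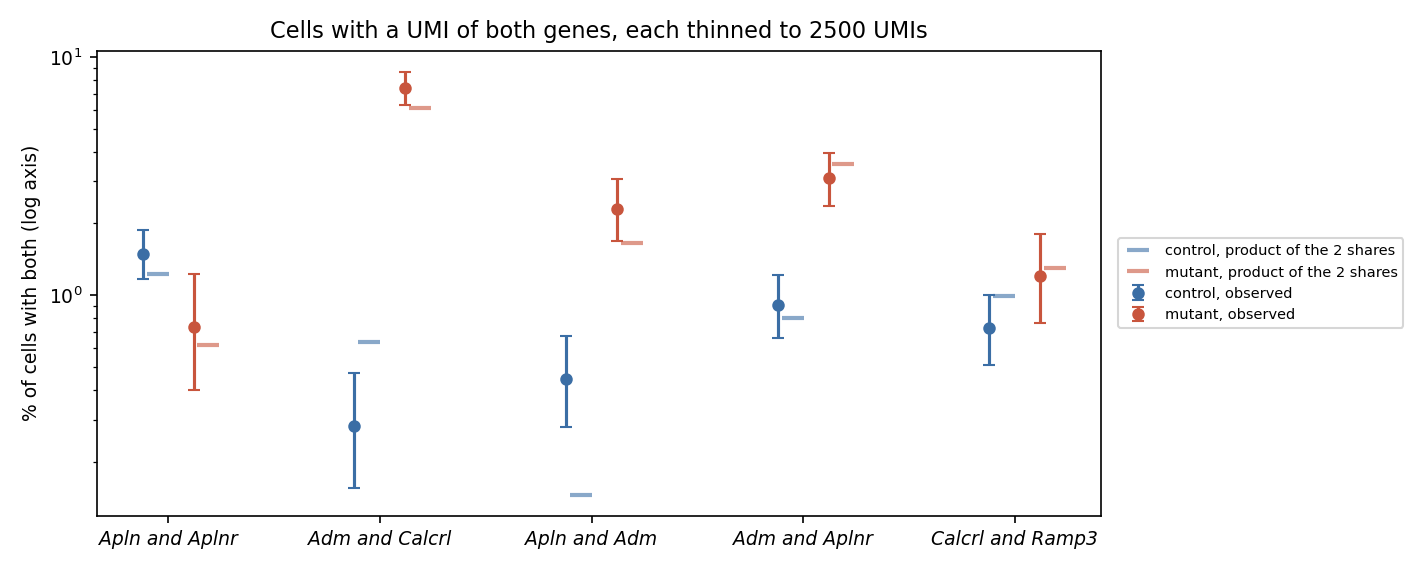
Percent of thinned Cdh5-positive cells with a UMI of both genes (points, with exact 95% intervals) and the product of the 2 genes' own shares (short lines), on a log axis, control blue and mutant red. The mutant lies above the control for Adm and Calcrl (7.38% against 0.282%) and below it for Apln and Aplnr (0.733% against 1.49%), and the control point for Apln and Adm lies above its product.

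Other genes of the 2 systems were looked at from lists of related ligands, receptors, processing enzymes and downstream genes. Of 16 other ligands, receptors and processing enzymes in the matrix, 5 reached a mean of 5 CPM, of which 2 were higher and 3 lower in the mutant. Past 2-fold were 1 higher and 0 lower, beside 4.9% and 6.29% of all genes tested. Ackr3, an atypical receptor that binds CXCL12 and adrenomedullin, was the 1 past 2-fold, at 2.86 CPM (160 UMIs) and 7.28 CPM (129 UMIs), a ratio of 2.54 (2.002 to 3.23). Its control level was below 5 CPM, so it passed the filter only through the mutant. Below a mean of 5 CPM, Adm2, which encodes the related peptide intermedin, had 2 UMIs in control and 32 in mutant cells, a ratio of 50.5 (12.9 to 435). Ramp1, the partner that turns the Calcrl product into a CGRP receptor, was found as 31 UMIs in control and 0 in mutant cells; with 3 UMIs as the floor it was at least 3.28-fold lower by its measured level, and the exact interval of the ratio reaches up to 0.399.

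Of 35 downstream genes in the matrix, 28 reached 5 CPM, and these were 14 higher and 14 lower, with a median log2 ratio of 0.01 against -0.13 over all genes. Past 2-fold higher were 4: Pde4b, which degrades cyclic AMP, with a ratio of 5.34 (control 25.7 CPM, mutant 137 CPM), Pde10a at 3.49, Crem, a cyclic AMP-responsive transcription factor, at 2.23, and Pde2a at 2.21. Past 2-fold lower were 2: Arrb2, a beta-arrestin, at 0.412, and Rgs2, a regulator of G protein signaling, at 0.417. Below 5 CPM, Pde3a, another phosphodiesterase, had 200 UMIs in control and 13 in mutant cells, a ratio of 0.205 (0.107 to 0.359), and Adcy9, an adenylyl cyclase, 41 and 45 UMIs, a ratio of 3.46 (2.22 to 5.42). The 4 phosphodiesterases named thus did not share a direction, with 3 higher and 1 lower. Gnas, the stimulatory G protein through which adrenomedullin receptors act, stood at 1552 and 1475 CPM, a ratio of 0.9503. The counts past 2-fold were 4 of 28 higher and 2 of 28 lower, beside 4.9% and 6.29% of all genes.

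Genes whose levels ran most like each member were ranked by Pearson r of log2(CPM + 1) over 20 sums of a cluster and a library, 12 control and 8 mutant, among 4874 genes. These sums share 2 libraries and differ in depth, so r is a description. For Adm the highest were Pfkp, a glycolytic enzyme (0.91), Nudt9 (0.91) and P4ha1, a collagen prolyl hydroxylase (0.91). Within the control sums alone these were 0.74, 0.74 and 0.66, and within the mutant sums 0.63, 0.62 and 0.78. For Apln they were Arhgap18 (0.92), Ets1 (0.92) and Fam102a (0.90), and for Aplnr Hapln1 (0.96), Pald1 (0.90) and Kank3 (0.90). For Calcrl they were Clec14a (0.94), Ptprb (0.92) and Cdh5 (0.92), all endothelial surface proteins. For Ramp2 they were Exoc3l4 (0.93), Sox18 (0.91) and Emcn (0.89), and for Ramp3 Vwa1 (0.87), Aph1a (0.85) and Mxra7 (0.84). Among the members, Apln and Aplnr had an r of 0.79 over the 20 sums, and Adm and Aplnr of -0.06, although they were at 0.62 within the control and 0.25 within the mutant.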

How the data were processed

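Sorted cells were profiled with 3′ droplet sequencing (version 3 chemistry, per the labels' protocols). Per the submitters' processing notes Cell Ranger and mm10 were used; the annotation release, the cell filter and how reads were counted were not given in the sources used here. Values the authors deposited are raw UMI counts, with 27998 genes and 9917 cells. The deposited mitochondrial fraction per cell was read as a description only. Cells were grouped by the genotype word in the deposited cell table.

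UMIs were summed per library and gate and scaled to CPM. Log2 ratios add 0.5 UMIs to each sum; intervals are exact (Poisson, conditional binomial, Clopper-Pearson; scipy 1.17.1). Thinning was to 2500 UMIs, with 5000 as an alternative. A gene counted as past the threshold at a 2-fold ratio among genes with a mean of at least 5 CPM. Clustering left out the 6 members and used 2000 variable genes, 30 principal components, 20 neighbours with at least 3 shared, and Leiden resolution 1 (leidenalg 0.10.2, igraph 0.11.9, scikit-learn 1.9.0). Cluster names came from marker lists. Cluster sums needed 50 cells. No doublet caller was run; the deepest 1% of cells were left out as an alternative. TMM factors came from edgeR 4.0.16, for scaling only, and the interval code was tested on simulated data. UMIs are counted once per molecule, yet the intervals leave out spread between embryos.

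The members, gene lists and alternatives were chosen with earlier results of these data known. Named beside the members were up to 8 genes of each pathway list, with at least 20 UMIs and a ratio past 2-fold, and the 3 genes most like each member; Gnas was named for its role after its values were seen.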

Additional observations from a re-analysis of the deposited data

Results flagged for a closer look

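For 2 genes the mutant lay below the control in cells with a Cdh5 UMI and above it in cells without one, which drew attention to them. Apln had a log2 ratio of -0.046 in cells with a Cdh5 UMI and 0.163 in cells without. Calcrl had -0.0189 and 0.151. The difference between the 2 kinds of cell was not tested, and the intervals of all 4 ratios include no change.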

How the results depend on the processing

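Over 13 alternatives Adm stayed above 0 (log2 3.53 to 4.02), Ramp3 too (0.17 to 0.49), and Aplnr (-1.49 to -1.15) and Ramp2 (-0.65 to -0.45) stayed below 0; Apln and Calcrl lay on both sides. Thinning to 2500 UMIs gave log2 ratios of 0.18 for Apln, -1.48 for Aplnr, 3.63 for Adm, -0.15 for Calcrl, -0.65 for Ramp2 and 0.49 for Ramp3. Endothelial-like clusters alone gave -0.27 for Apln, -1.48 for Aplnr, 3.59 for Adm and -0.42 for Calcrl. Cells with cell-cycle sums not above the median gave 3.53 for Adm, -0.19 for Calcrl and -0.61 for Ramp2. Totals without mitochondrial, ribosomal and hemoglobin genes, which shift all genes by 0.12, gave -1.15 for Aplnr, 0.10 for Calcrl and -0.45 for Ramp2. TMM and median-of-ratios factors gave -0.52 and -0.51 for Ramp2. Chosen after seeing the data, leaving out clusters 6 and 7 gave -1.49 for Aplnr, and leaving out cluster 15 gave 3.73 for Adm and -0.27 for Calcrl. The cause of these shifts was not tested.

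Deeper cells raise joint detection by construction. At 5000 UMIs and unthinned, Apln with Aplnr was found in 3.42% and 9.62% of control cells, and unthinned in 2.76% of mutant cells. Adm with Calcrl was found in 1.22% and 3.35% of control and 14.8% and 25.6% of mutant cells. Genes past 2-fold numbered 2522 higher and 3704 lower with no filter beyond 1 UMI, and 87 and 114 at a mean of at least 50 CPM. At 1.5-fold they numbered 1020 and 1693. No paired analysis was possible because each group is 1 library. With 1 library a group, depth limits only the low genes: 3 UMIs in Cdh5-positive cells are 0.0536 CPM (control) or 0.169 CPM (mutant).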
